A study of Mus musculus with 27 samples.

Results

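The 52 mouse genes described here encode the chains of collagens and laminins that have a probe set annotated to them alone on an Affymetrix array. They were taken by symbol, as Col, a number, a and a number (42 collagen genes) or as Lam, a letter a, b or c and a number (10 laminin genes), from 18193 genes with such a probe set. Of these, 41 members (34 collagen and 7 laminin genes) had enough signal to be tested among 13527 genes. The other 11 members (Col2a1, Col6a5, Col9a2, Col10a1, Col13a1, Col17a1, Col24a1, Col26a1, Lama3, Lama4 and Lamb3) did not exceed the median of the table, 5.51 on the log2 scale, on 3 arrays.

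The study hybridised RNA of mouse cerebellum to 27 arrays and compared cerebellar tumours that arise with an overactive Hedgehog pathway. SmoM2 is an activated form of Smoothened, the membrane protein that passes the Hedgehog signal into the cell, and here a Cre recombinase switched it on in cells chosen by a promoter. Tumours came from Math1-cre:SmoM2 mice (3 arrays), Tlx3-cre:SmoM2 mice (3), Olig2-tva-cre:SmoM2 mice (7), hGFAP-cre:SmoM2 mice (6) and Ptc1+/- mice (2), which carry 1 working copy of the Hedgehog receptor Patched1 and no SmoM2. The 6 arrays of cerebellar tissue without tumour also came from mutant mice, so that no wild-type animal is among them: 2 were Olig2-tva-cre:SmoM2, 1 hGFAP-cre:SmoM2, 2 Mxi1-cre:SmoM2 and 1 Ptc1+/-. Math1 and Tlx3 drive Cre in the granule neuron lineage, and the hGFAP and Olig2 drivers also act in earlier progenitors that give rise to several cell types. The groups are called below by the name of the driver or mutation. Ages were not among the labels used here. The labels name biological replicates but no animals, and the p-values therefore cover only the variation among these arrays.

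Collagens are trimers of alpha chains wound into a triple helix. Fibrillar collagens form the tensile fibres of connective tissue, and collagen IV forms the network of basement membranes, the thin sheets that surround vessels and cover the brain surface. Laminins are cross-shaped trimers of 1 alpha, 1 beta and 1 gamma chain that start basement membrane assembly and are read by integrins and dystroglycan. In the developing cerebellum the pial basement membrane, to which radial glia attach and below which granule neuron precursors divide, is made largely by meningeal cells, while vessels have basement membranes of their own.

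The starts of 5 members on which the results turn are shown first, as windows of 300 bases that reach from upstream of the annotated start to just inside the gene, taken from RefSeq on build GRCm38.p6 and written 5′ to 3′ on the strand of the gene. Windows were given for 38 of the 52 members. Col4a1 and Col4a2 encode the paired chains of the commonest collagen IV trimer and lie head to head on opposite strands. Their annotated first bases, 11312826 for Col4a1 and 11312805 for Col4a2, are 21 bases apart. Each lies inside the other gene, so the annotated starts overlap. The window of Col4a1 lies at chr8:11312777-11313076 on the minus strand and that of Col4a2 at chr8:11312555-11312854 on the plus strand. The capitals mark the 78 bases that both windows hold, on opposite strands.
Col4a1: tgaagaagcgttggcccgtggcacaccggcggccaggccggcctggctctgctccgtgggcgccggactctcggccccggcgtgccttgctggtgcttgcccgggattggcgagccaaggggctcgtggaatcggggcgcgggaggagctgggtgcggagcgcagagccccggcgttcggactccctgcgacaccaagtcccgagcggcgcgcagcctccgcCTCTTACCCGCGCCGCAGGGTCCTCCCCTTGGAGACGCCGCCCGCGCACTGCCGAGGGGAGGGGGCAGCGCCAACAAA
Col4a2: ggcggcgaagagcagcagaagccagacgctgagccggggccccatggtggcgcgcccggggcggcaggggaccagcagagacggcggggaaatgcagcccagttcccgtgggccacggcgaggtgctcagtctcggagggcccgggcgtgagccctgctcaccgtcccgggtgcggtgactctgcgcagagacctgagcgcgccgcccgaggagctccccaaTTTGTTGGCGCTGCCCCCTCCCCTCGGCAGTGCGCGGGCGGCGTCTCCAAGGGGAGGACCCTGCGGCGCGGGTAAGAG
The next 3 windows belong to Col11a1 and Lama5, whose signals were above every array without tumour in all tumours, and to Lamb1, which was lower in all 5 tumour groups. The Col11a1 window lies at chr3:114030290-114030589 on the plus strand, the Lama5 window at chr2:180225810-180226109 on the minus strand and the Lamb1 window at chr12:31265043-31265342 on the plus strand. The capitals mark the CCAAT box letters CCAAT and the GC box letters GGGCGG on either strand.
Col11a1: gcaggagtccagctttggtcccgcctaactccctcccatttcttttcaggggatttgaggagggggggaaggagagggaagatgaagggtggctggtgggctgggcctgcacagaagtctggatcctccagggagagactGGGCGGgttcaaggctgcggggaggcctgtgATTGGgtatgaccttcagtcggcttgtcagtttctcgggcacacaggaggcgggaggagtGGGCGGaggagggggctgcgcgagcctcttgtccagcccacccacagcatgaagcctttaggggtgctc
Lama5: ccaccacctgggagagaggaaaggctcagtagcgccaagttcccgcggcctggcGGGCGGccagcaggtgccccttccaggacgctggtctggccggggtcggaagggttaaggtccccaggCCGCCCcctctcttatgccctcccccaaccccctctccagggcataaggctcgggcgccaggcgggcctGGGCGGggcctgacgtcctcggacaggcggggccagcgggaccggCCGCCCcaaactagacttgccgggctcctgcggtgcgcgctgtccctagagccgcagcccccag
Lamb1: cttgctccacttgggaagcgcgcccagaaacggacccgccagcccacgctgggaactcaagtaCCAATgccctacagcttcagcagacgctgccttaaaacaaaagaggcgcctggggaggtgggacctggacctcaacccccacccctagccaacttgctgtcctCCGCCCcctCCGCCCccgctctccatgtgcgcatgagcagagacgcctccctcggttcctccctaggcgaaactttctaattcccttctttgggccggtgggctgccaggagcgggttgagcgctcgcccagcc
A gene was counted for a motif where any of its windows held the letters. CCAAT was found for 14 of the 38 members with a window (36.8%) and for 41.1% of all 27025 genes with one. GGGCGG was found for 24 of these members (63.2%) and for 38.2% of all these genes. The TATA box letters TATAAA were found for 5 of the members (13.2%) and for 15.7% of all. The Gli site letters GACCACCCA, the motif of the transcription factors that end the Hedgehog pathway, were found for 0 of the 38 members and for 0.289% of all. All motifs were searched on both strands, and a match describes letters only. Besides Col4a1 and Col4a2, 6 pairs of members are next to each other in the genome, Col3a1 and Col5a2, Col4a3 and Col4a4, and Col9a1 and Col19a1 on chromosome 1, Col6a1 and Col6a2 on chromosome 10, Col6a4 and Col6a5 on chromosome 9, and Col4a5 and Col4a6 on chromosome X.

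All values below are log2 signals after each array was rescaled to a common trimmed mean, since the deposited arrays differed 4.84-fold in that mean. Signals under 3.37 were raised to this floor, so a value of 3.37 is an upper bound. A gene was called where limma gave a Benjamini-Hochberg adjusted p under 0.05 over all 13527 genes, and differences are log2, tumours minus tissue without tumour, with their standard error (SE). Markers of granule neuron precursors were higher in the tumours for 5 of 5 genes. Markers of Purkinje cells (4 of 4), mature granule neurons (5 of 5) and oligodendrocytes (4 of 4) were lower, that is, higher in tissue without tumour. Microglia and macrophage markers were higher for 6 of 6, with sums of 2866 to 9927 in tumours and 944 to 1450 in tissue without tumour, and astrocyte and Bergmann glia markers were lower for 6 of 7. The part of these cells in the results below was not tested. Choroid plexus markers summed to 10415 on tissue without tumour replicate 5 and to 159 to 336 on the other 5 arrays of that group, and ran from 128 to 13570 on the tumour arrays. Arrays with a deposited trimmed mean under 85, of which there were 7, are called dim.

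Across all 5 tumour groups, given equal weight, 17 of the 41 tested members were called, 11 higher and 6 lower than in tissue without tumour. Calls were at least as common among all genes, of which 52.4% were called, 26.8% higher and 25.6% lower. The median difference of the members was 0.09, beside 0.016 for all genes tested. The members that rose were the collagen IV chains Col4a1, Col4a2 and Col4a4, the fibrillar chains Col11a1, Col3a1 and Col5a2, the laminin chains Lama1, Lama5 and Lamc1, and Col9a3 and Col15a1. Among them Lama1, Col4a4 and Col15a1 passed the signal filter through tumour arrays alone. Their highest signals without tumour were 4.43, 4.60 and 5.43, under the 5.51 of the filter, so these calls are not independent of it. Those that fell were Col19a1, Lamb1, Lama2, Col18a1, Col27a1 and Col5a1. Without the rescaling, 17 members were still called, but 6 were higher and 11 lower. These are bulk samples, in which fewer cells of a type and less RNA per cell cannot be told apart.

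**Figure D1:**
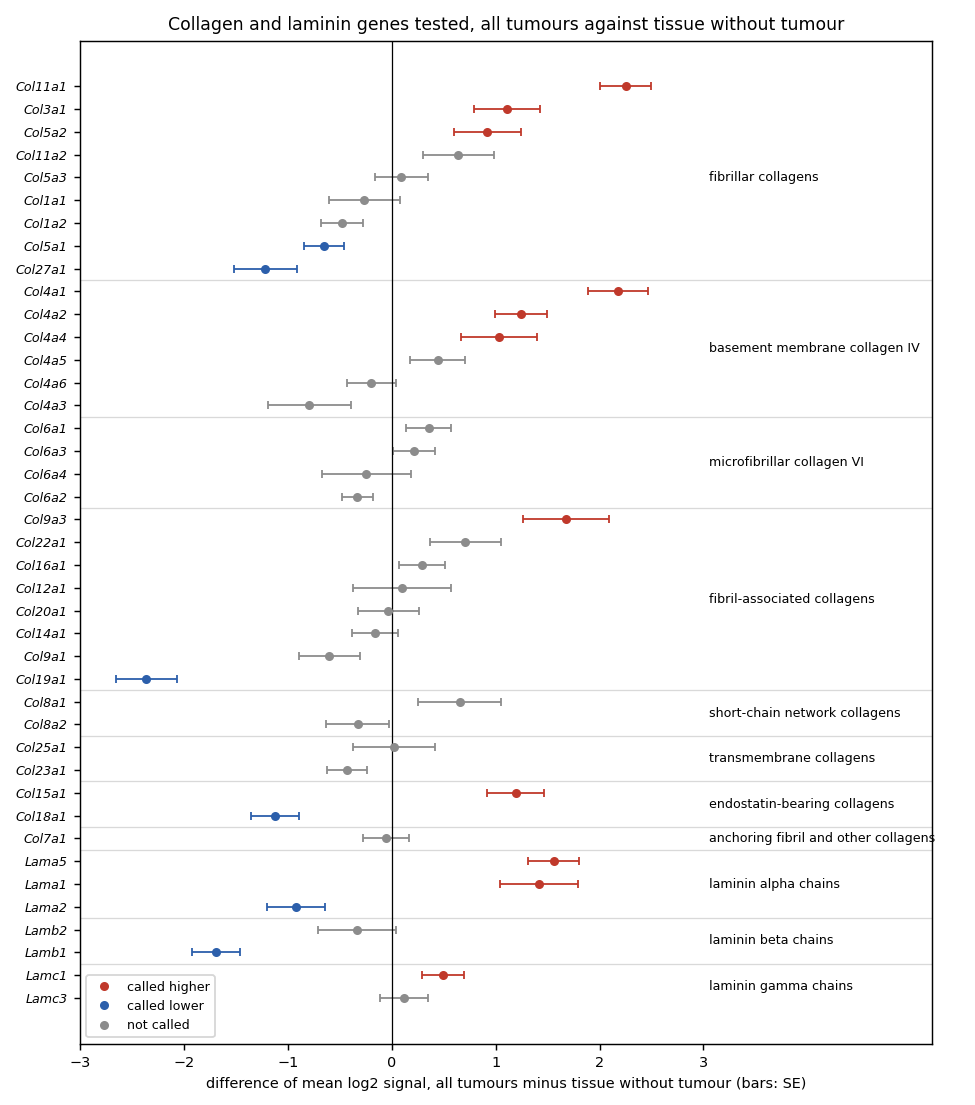
Log2 difference of all tumours minus tissue without tumour for the 41 tested members, grouped by class on the vertical axis, with whiskers of 1 standard error. Red points were called higher (11), blue points lower (6) and grey points not called (24), with Col11a1 the highest at 2.25 and Col19a1 the lowest at −2.36.

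Collagen IV, the sheet-forming collagen of basement membranes, had 6 tested chains, of which 3 were higher, 0 lower and 3 not called, with a median difference of 0.74. Col4a1 had log2 signals of 9.41, 9.00 and 8.70 in Math1 tumours, 8.36, 8.46 and 8.69 in Tlx3 tumours, 8.61 to 10.44 (median 9.28) in Olig2 tumours, 8.33 to 10.27 (median 9.21) in hGFAP tumours, 8.75 and 7.04 in Ptc1+/- tumours, and 6.19 to 7.62 (median 6.56) in tissue without tumour. All but 1 of the 21 tumour arrays lay above every array without tumour, and the exception was a Ptc1+/- tumour. The difference was 2.17 (SE 0.29, adjusted p = 2.52e-07), a 4.52-fold higher signal.

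Col4a2 had log2 signals of 7.53, 7.19 and 6.78 in Math1 tumours, 6.01, 6.80 and 6.73 in Tlx3 tumours, 6.37 to 8.20 (median 7.23) in Olig2 tumours, 5.71 to 8.06 (median 7.10) in hGFAP tumours, 6.73 and 6.22 in Ptc1+/- tumours, and 5.35 to 5.96 (median 5.62) in tissue without tumour. Here too 20 of the 21 tumour arrays were above every array without tumour, and the exception was an hGFAP tumour. The difference was 1.24 (SE 0.25, adjusted p = 0.000108), a 2.37-fold higher signal. A second probe set of Col4a1 gave a difference of 1.22 and was called as well.

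The other collagen IV chains form trimers of more restricted basement membranes, such as those of the kidney glomerulus. Col4a4 was higher by 1.03 (SE 0.37, adjusted p = 0.0197), with 2 arrays without tumour and 2 tumour arrays at the floor. That call was lost without tissue without tumour replicate 1 (0.92, adjusted p = 0.0555) and without replicate 4 (0.93, adjusted p = 0.0555). Its genomic neighbour Col4a3 had a difference of −0.79 (adjusted p = 0.098) and was not called. Col4a5 had log2 signals of 6.99, 6.52 and 5.85 in Math1 tumours, 6.37, 6.68 and 6.09 in Tlx3 tumours, 5.90 to 8.21 (median 6.83) in Olig2 tumours, 6.84 to 8.51 (median 7.59) in hGFAP tumours, 5.92 and 5.22 in Ptc1+/- tumours, and 5.70 to 6.37 (median 6.09) in tissue without tumour. Every hGFAP tumour was above every array without tumour, and both Ptc1+/- tumours lay within or under their range. The difference over all tumours was 0.44 (adjusted p = 0.165), and in hGFAP tumours alone Col4a5 was higher by 1.45 (adjusted p = 0.000524).

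**Figure D2:**
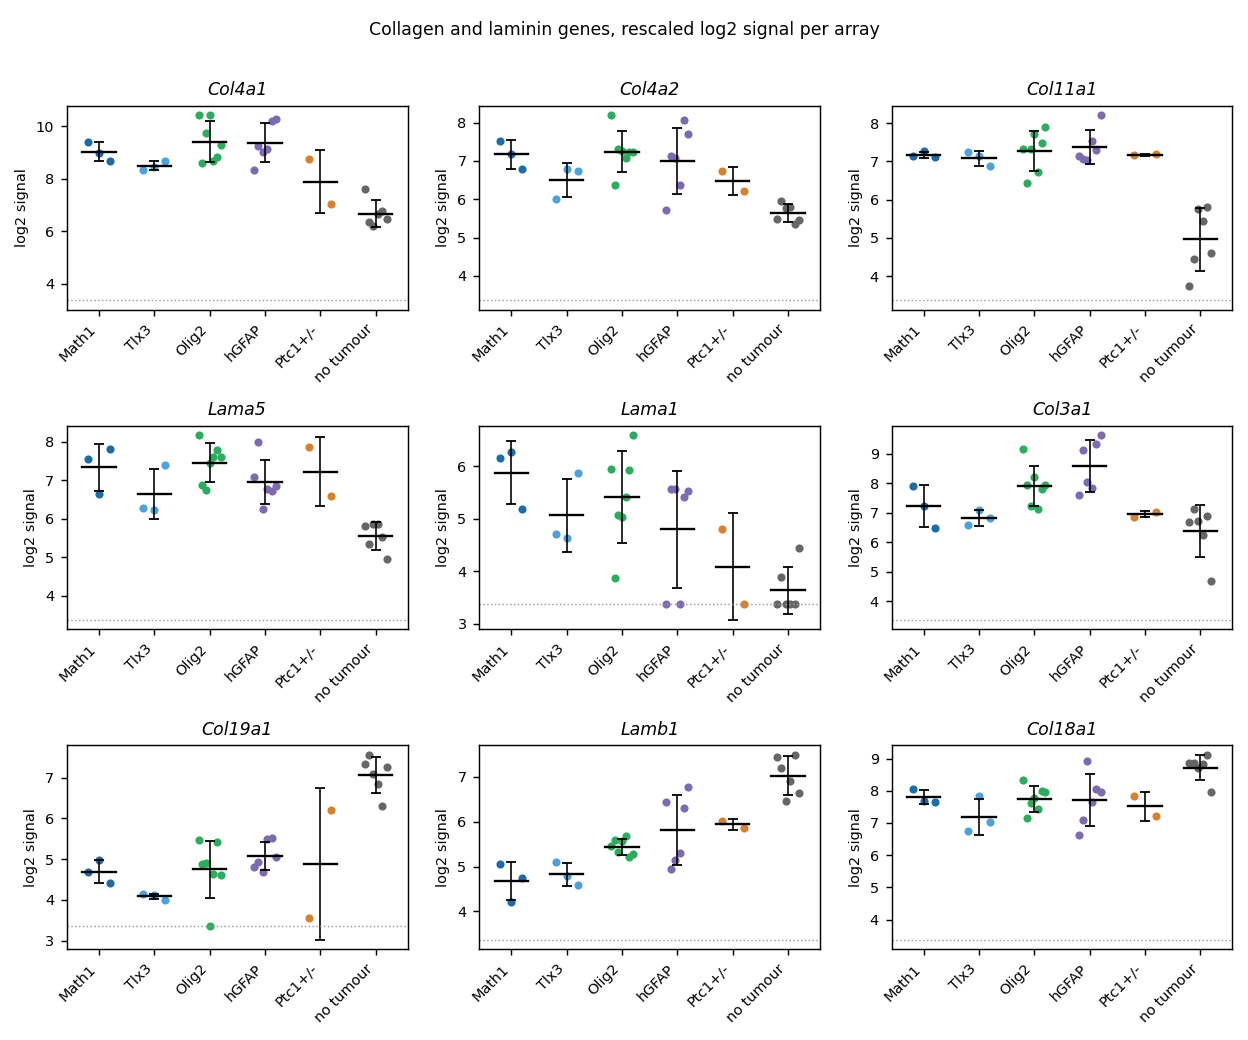
Log2 signal (vertical axes) of 9 members on every array, with the 5 tumour groups left of tissue without tumour. Points are arrays, bars are group means with whiskers of 1 SD, and the dotted line is the floor at 3.37. Col11a1 and Lama5 lie above, and Col19a1 below, the arrays without tumour on all 21 tumour arrays.

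Among the 9 tested fibrillar collagens, 3 were higher, 2 lower and 4 not called, with a median difference of 0.09. Col11a1, a minor chain of thin fibrils, had log2 signals of 7.14, 7.26 and 7.12 in Math1 tumours, 7.24, 7.13 and 6.87 in Tlx3 tumours, 6.42 to 7.91 (median 7.34) in Olig2 tumours, 7.04 to 8.21 (median 7.22) in hGFAP tumours, 7.16 and 7.19 in Ptc1+/- tumours, and 3.75 to 5.79 (median 5.02) in tissue without tumour. The groups did not overlap, which was so for 3 of the 41 members and for 17.8% of all genes. The difference was 2.25 (SE 0.24, adjusted p = 5.78e-09), a 4.76-fold higher signal, and a second probe set gave 3.01. By group it was 2.12 (Tlx3) to 2.42 (hGFAP), called in each. Col11a2, which joins the same trimer, had a difference of 0.64 (adjusted p = 0.119).

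Col3a1, a fibril chain of soft tissue and vessel walls, had log2 signals of 7.92, 7.23 and 6.50 in Math1 tumours, 6.57, 7.09 and 6.82 in Tlx3 tumours, 7.13 to 9.16 (median 7.95) in Olig2 tumours, 7.58 to 9.64 (median 8.56) in hGFAP tumours, 6.87 and 7.01 in Ptc1+/- tumours, and 4.68 to 7.11 (median 6.69) in tissue without tumour. All Olig2 and hGFAP tumours exceeded every array without tumour, whereas the other groups overlapped that range. The difference over all tumours was 1.11 (SE 0.32, adjusted p = 0.00412). By group it was 2.20 in hGFAP and 1.53 in Olig2 tumours, both called, and 0.83, 0.44 and 0.56 in Math1, Tlx3 and Ptc1+/- tumours, not called. Its neighbour Col5a2, a chain that sets fibril width, was higher by 0.92 (SE 0.33, adjusted p = 0.0189), and lost that call without tissue without tumour replicate 1 (0.83, adjusted p = 0.0535).

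Col1a1 and Col1a2 encode the chains of collagen I, the bulk collagen of connective tissue, and neither was called. Col1a1 had log2 signals of 5.84, 5.37 and 4.22 in Math1 tumours, 4.63, 4.61 and 5.21 in Tlx3 tumours, 4.58 to 6.50 (median 5.30) in Olig2 tumours, 4.78 to 7.01 (median 6.21) in hGFAP tumours, 5.31 and 4.62 in Ptc1+/- tumours, and 4.87 to 7.34 (median 5.32) in tissue without tumour. Its difference was −0.26 (adjusted p = 0.545), and 0.09 without tissue without tumour replicate 5, the array with the highest value and with the choroid plexus markers. Col1a2 had log2 signals of 7.87, 7.07 and 6.96 in Math1 tumours, 6.40, 6.94 and 6.97 in Tlx3 tumours, 6.82 to 8.08 (median 7.31) in Olig2 tumours, 7.53 to 8.72 (median 8.39) in hGFAP tumours, 7.02 and 6.97 in Ptc1+/- tumours, and 7.01 to 8.59 (median 7.78) in tissue without tumour. The groups overlapped, with hGFAP tumours in the upper range, and the difference was −0.48 (SE 0.21, adjusted p = 0.0516). Leaving out tissue without tumour replicate 6 gave −0.64 (adjusted p = 0.0114), and a second probe set gave 0.18. Leaving out 5 other arrays in turn also took its adjusted p under 0.05.

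Col27a1, a fibrillar chain best known from cartilage, had log2 signals of 6.78, 4.65 and 7.22 in Math1 tumours, 6.41, 6.19 and 5.41 in Tlx3 tumours, 6.24 to 8.56 (median 7.45) in Olig2 tumours, 6.13 to 7.86 (median 7.54) in hGFAP tumours, 7.23 and 6.58 in Ptc1+/- tumours, and 7.69 to 8.23 (median 8.00) in tissue without tumour. It was below every array without tumour on 18 of the 21 tumour arrays. Its difference was −1.22 (SE 0.30, adjusted p = 0.0011). Col5a1, which forms trimers with Col5a2, had log2 signals of 5.86, 5.98 and 6.03 in Math1 tumours, 5.11, 5.44 and 5.67 in Tlx3 tumours, 5.21 to 6.51 (median 5.99) in Olig2 tumours, 5.51 to 6.43 (median 6.06) in hGFAP tumours, 5.95 and 6.10 in Ptc1+/- tumours, and 5.88 to 6.79 (median 6.58) in tissue without tumour. The ranges overlapped, with 9 tumour arrays below every array without tumour. Col5a1 was lower, with a difference of −0.65 (SE 0.19, adjusted p = 0.00489), while its partner Col5a2 was higher.

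The fibril-associated collagens, which sit on the surface of fibrils, had 8 tested members, of which 1 was higher, 1 lower and 6 not called (median difference 0.03). Col19a1, a chain that neurons also make, had log2 signals of 4.68, 4.98 and 4.41 in Math1 tumours, 4.14, 4.11 and 4.01 in Tlx3 tumours, 3.37 to 5.47 (median 4.87) in Olig2 tumours, 4.67 to 5.51 (median 4.98) in hGFAP tumours, 3.56 and 6.20 in Ptc1+/- tumours, and 6.30 to 7.56 (median 7.16) in tissue without tumour. No tumour array reached the lowest array without tumour, although 1 Ptc1+/- tumour, at 6.20, came close to it. The difference was −2.36 (SE 0.29, adjusted p = 6.6e-08), a 5.14-fold lower signal. Its neighbour Col9a1, a chain of collagen IX, had a difference of −0.60 (adjusted p = 0.0897). A second probe set of Col9a1 gave 0.53 and was called higher in the limma fit of single probe sets (adjusted p = 0.0378), so the 2 differ in sign. Col9a3, another chain of collagen IX, had log2 signals of 7.71, 7.34 and 8.35 in Math1 tumours, 7.48, 7.55 and 6.46 in Tlx3 tumours, 7.01 to 9.14 (median 8.14) in Olig2 tumours, 5.65 to 7.94 (median 7.45) in hGFAP tumours, 6.52 and 8.46 in Ptc1+/- tumours, and 3.37 to 7.18 (median 6.50) in tissue without tumour. It was above every array without tumour on 17 of 21 tumour arrays, and 1 array without tumour was at the floor. The difference was 1.67 (SE 0.42, adjusted p = 0.00115).

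Col15a1 and Col18a1 are both basement membrane collagens that end in an endostatin-type domain, and they moved in opposite directions. Col15a1 had log2 signals of 6.71, 5.82 and 5.57 in Math1 tumours, 4.70, 5.19 and 5.41 in Tlx3 tumours, 5.21 to 6.84 (median 6.04) in Olig2 tumours, 5.63 to 6.92 (median 6.28) in hGFAP tumours, 5.62 and 6.53 in Ptc1+/- tumours, and 3.37 to 5.43 (median 4.98) in tissue without tumour. The Tlx3 tumours stayed within the range of tissue without tumour, and all Math1, hGFAP and Ptc1+/- tumours exceeded it. Col15a1 was higher by 1.19 (SE 0.27, adjusted p = 0.000536). Col18a1 had log2 signals of 8.06, 7.70 and 7.65 in Math1 tumours, 6.75, 7.82 and 7.02 in Tlx3 tumours, 7.14 to 8.34 (median 7.76) in Olig2 tumours, 6.64 to 8.92 (median 7.81) in hGFAP tumours, 7.84 and 7.21 in Ptc1+/- tumours, and 7.96 to 9.13 (median 8.84) in tissue without tumour. It was lower, with a difference of −1.12 (SE 0.23, adjusted p = 0.000173) and with 15 tumour arrays below every array without tumour. A second probe set of Col18a1 differed by only 0.03 and was not called, so the decline holds for 1 of the 2 probe sets tested.

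All 4 tested chains of collagen VI, the beaded microfibril collagen, were not called over all tumours, with a median of −0.02. Col6a1 had a difference of 0.36 (adjusted p = 0.17), Col6a2 −0.33 (adjusted p = 0.0602), Col6a3 0.21 and Col6a4 −0.25. Col6a2 came under the threshold without Olig2 replicate 7, hGFAP replicate 2, Ptc1+/- replicate 2 or tissue without tumour replicate 2, with the smallest adjusted p of 0.0307 without hGFAP replicate 2. The short-chain collagens Col8a1 (0.66) and Col8a2 (−0.33) and the anchoring-fibril collagen Col7a1 (−0.06) were not called either, nor were the 2 transmembrane collagens tested.

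Of the 7 laminin chains tested, 3 were higher (Lama1, Lama5 and Lamc1), 2 lower (Lama2 and Lamb1) and 2 not called (Lamb2 and Lamc3). All 3 alpha chains were called, in both directions. Lama5, an alpha chain of vascular and epithelial basement membranes, had log2 signals of 7.56, 6.65 and 7.81 in Math1 tumours, 6.29, 6.24 and 7.40 in Tlx3 tumours, 6.74 to 8.19 (median 7.60) in Olig2 tumours, 6.27 to 8.00 (median 6.82) in hGFAP tumours, 7.86 and 6.59 in Ptc1+/- tumours, and 4.96 to 5.88 (median 5.67) in tissue without tumour. The groups did not overlap. The difference was 1.56 (SE 0.25, adjusted p = 3.84e-06), a 2.95-fold higher signal, and a second probe set gave 1.61.

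Lama1, the alpha chain of early embryonic and pial basement membranes, had log2 signals of 6.17, 6.27 and 5.19 in Math1 tumours, 4.70, 4.62 and 5.87 in Tlx3 tumours, 3.86 to 6.60 (median 5.42) in Olig2 tumours, 3.37 to 5.57 (median 5.47) in hGFAP tumours, 4.81 and 3.37 in Ptc1+/- tumours, and 3.37 to 4.43 (median 3.37) in tissue without tumour. Of the arrays without tumour 4 of 6 were at the floor, as were 2 hGFAP tumours and 1 Ptc1+/- tumour, and 17 of the 21 tumour arrays were above all without tumour. The difference was 1.42 (SE 0.38, adjusted p = 0.00217). Lama2, the alpha chain of muscle, peripheral nerve and vessel walls in brain, had log2 signals of 4.95, 5.53 and 4.30 in Math1 tumours, 4.42, 4.59 and 4.78 in Tlx3 tumours, 3.37 to 6.14 (median 5.66) in Olig2 tumours, 5.66 to 6.92 (median 6.46) in hGFAP tumours, 5.75 and 6.40 in Ptc1+/- tumours, and 6.02 to 6.80 (median 6.39) in tissue without tumour. All Math1 and Tlx3 tumours were below every array without tumour, whereas the hGFAP tumours overlapped them. The difference over all tumours was −0.92 (SE 0.28, adjusted p = 0.00687).

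Lama4, the other vascular alpha chain, stayed under the signal filter and was not tested. Its log2 signals were 4.07, 3.93 and 3.37 in Math1 tumours, 3.37, 3.37 and 3.79 in Tlx3 tumours, 3.37 to 5.56 in Olig2 tumours, 4.53 to 5.32 in hGFAP tumours, 4.67 and 5.57 in Ptc1+/- tumours, and 3.37 to 3.69 in tissue without tumour. All hGFAP and Ptc1+/- tumours lay above the arrays without tumour, of which 3 of 6 were at the floor.

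Lamb1, the beta chain of most early laminins, had log2 signals of 5.06, 4.22 and 4.74 in Math1 tumours, 5.11, 4.79 and 4.60 in Tlx3 tumours, 5.21 to 5.68 (median 5.45) in Olig2 tumours, 4.94 to 6.78 (median 5.80) in hGFAP tumours, 6.03 and 5.86 in Ptc1+/- tumours, and 6.46 to 7.50 (median 7.06) in tissue without tumour. On 20 of the 21 tumour arrays it was below every array without tumour, and 1 hGFAP tumour overlapped. Its difference was −1.69 (SE 0.23, adjusted p = 3.12e-07), a 3.23-fold lower signal. Lamb2, the beta chain of mature vessels and synapses, had log2 signals of 4.06, 3.41 and 4.48 in Math1 tumours, 4.00, 4.45 and 4.25 in Tlx3 tumours, 3.37 to 5.78 (median 5.01) in Olig2 tumours, 3.37 to 6.25 (median 4.88) in hGFAP tumours, 3.37 and 5.83 in Ptc1+/- tumours, and 4.57 to 5.12 (median 4.82) in tissue without tumour. It spread to both sides of tissue without tumour, with a difference of −0.34 (adjusted p = 0.476). The gamma chain Lamc1, shared by most laminins, had log2 signals of 7.77, 7.44 and 7.42 in Math1 tumours, 6.89, 7.10 and 7.30 in Tlx3 tumours, 6.84 to 7.73 (median 7.14) in Olig2 tumours, 6.47 to 8.24 (median 7.45) in hGFAP tumours, 7.66 and 6.93 in Ptc1+/- tumours, and 6.00 to 7.13 (median 6.96) in tissue without tumour. The groups overlapped, with 13 tumour arrays above all without tumour. Its difference of 0.49 (SE 0.20, adjusted p = 0.0409) was not called when 1 of 6 arrays was left out (tissue without tumour replicate 3, 4 or 6, Math1 replicate 1, Tlx3 replicate 3 or Ptc1+/- replicate 1), with 0.33 (adjusted p = 0.185) without tissue without tumour replicate 3.

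The 5 tumour groups were then set singly against the same 6 arrays of tissue without tumour, which these comparisons share. In Olig2 tumours 19 members were called, 12 higher and 7 lower, where 49.6% of all genes were called, 24.7% higher and 25% lower. In hGFAP tumours 11 were higher and 3 lower, where 41.7% of all genes were called, 22.5% higher and 19.2% lower. Math1 tumours had 7 higher and 5 lower members, where 37.4% of all genes were called, 19.3% higher and 18.1% lower. Tlx3 tumours had 4 higher and 10 lower members, where 40.3% of all genes were called, 19.7% higher and 20.6% lower. In Ptc1+/- tumours, with 2 arrays, 4 were higher and 3 lower, where 36.3% of all genes were called, 17.9% higher and 18.4% lower, and the member count was 4 without Ptc1+/- replicate 2. More members were lower than higher in Tlx3 tumours, and more were higher than lower in the other 4 groups. The median difference of the members was 0.45 in hGFAP tumours (0.11 over all genes) and −0.26 in Tlx3 tumours (−0.08 over all genes). It was −0.05 in Math1 tumours (0.03), −0.01 in Olig2 tumours (−0.01) and 0.24 in Ptc1+/- tumours (0.09).

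Col11a1 and Lama5 were called higher in all 5 groups, which is 2 of 41 members where 12.1% of all genes were. Col18a1, Col19a1 and Lamb1 were called lower in all 5, where 11.7% of all genes were. No member was called higher in 1 group and lower in another, and 16 members were called in none. The shares over all genes are not given for these 2 counts, which are therefore not read as particular to the members. Lama5 was higher by 1.90 in Olig2 tumours, 1.78 in Math1 tumours, 1.66 in Ptc1+/- tumours, 1.39 in hGFAP tumours and 1.08 in Tlx3 tumours. For Lamb1 the differences were −2.36 in Math1 tumours, −2.20 in Tlx3 tumours, −1.59 in Olig2 tumours, −1.21 in hGFAP tumours and −1.09 in Ptc1+/- tumours. Col4a1 was called in the 4 SmoM2 groups, at 2.36 in Math1, 1.83 in Tlx3, 2.75 in Olig2 and 2.70 in hGFAP tumours. In Ptc1+/- tumours its difference was 1.22 (adjusted p = 0.0546). Lama1 was called at 2.24 in Math1, 1.43 in Tlx3, 1.78 in Olig2 and 1.17 in hGFAP tumours, and was 0.46 in Ptc1+/- tumours (adjusted p = 0.618).

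Some members were called in 1 or a few groups. Lama2 was lower in Math1 (−1.45), Tlx3 (−1.78) and Olig2 tumours (−1.11), while its difference was 0.04 in hGFAP tumours. Col27a1 was lower in Math1 (−1.75) and Tlx3 tumours (−1.96). In Tlx3 tumours Col1a2 (−1.04), Col6a2 (−0.89), Col23a1 (−1.01) and Col14a1 (−0.82) were also lower. Col6a1 was higher in Olig2 (0.74) and hGFAP tumours (0.81), and Col5a2 in the same groups (1.17 and 1.71). Col16a1 was higher in Olig2 tumours (0.69) and Col22a1, a chain of tissue junctions, in Ptc1+/- tumours (1.68, adjusted p = 0.0264). Col22a1 too passed the signal filter through tumour arrays alone, with a highest signal of 4.83 in tissue without tumour. A call in 1 group and none in another does not show that the groups differ, and the direct tests between tumours follow.

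**Figure D3:**
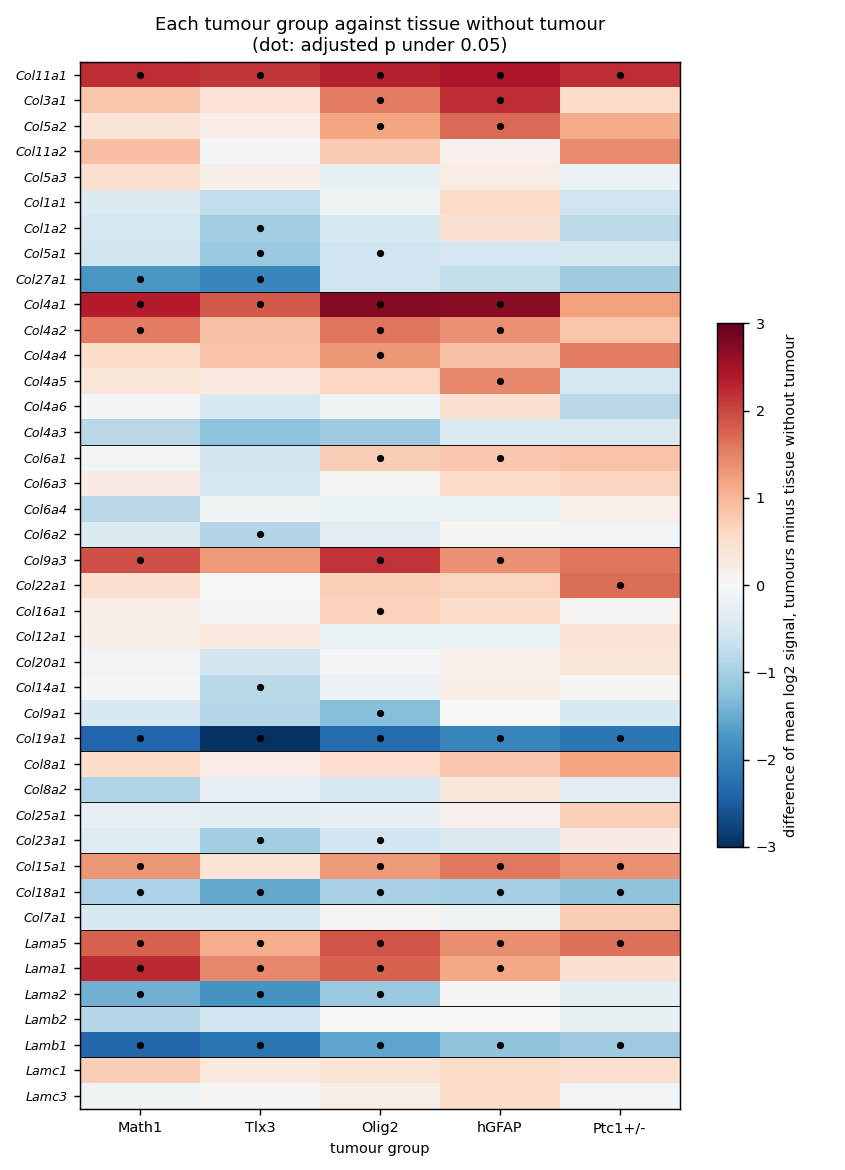
Colour map of the log2 difference of each tumour group minus tissue without tumour (columns, 5 groups) for the 41 tested members (rows), with a dot where the member was called. Col11a1 and Lama5 carry dots for higher, and Col18a1, Col19a1 and Lamb1 for lower, in all 5 columns.

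Comparisons between tumours ask whether the matrix genes differ with the cell in which Smoothened was activated. An F test over the 4 SmoM2 groups called 3 of 41 members, Col1a2 (adjusted p = 0.0307), Lama2 (adjusted p = 0.0441) and Col6a1 (adjusted p = 0.0441), where 0.946% of all genes were called. The contrasts hold no array without tumour, but the spread was estimated over all 6 groups. With single arrays left out, the Col1a2 call was lost for 8 of 27 arrays (adjusted p up to 0.0867, without Tlx3 replicate 1), the Lama2 call for 18 (up to 0.0982) and the Col6a1 call for 18 (up to 0.141). For Lama2 and Col6a1 these included each of the 6 arrays without tumour. A second probe set of Col1a2 was not called in the F test of single probe sets (adjusted p = 0.263). Among 17 other alternatives the calls held in 8 (Col1a2), 8 (Lama2) and 7 (Col6a1). The next were Col6a2 (adjusted p = 0.0794) and Col3a1 (adjusted p = 0.0953), which did not pass. In all of these 5 members hGFAP tumours had the highest group mean and Tlx3 tumours the lowest. Col1a2 averaged 8.26 ± 0.44 in hGFAP tumours (SD, n = 6), 7.34 ± 0.47 in Olig2 tumours (n = 7), 7.30 ± 0.50 in Math1 tumours (n = 3) and 6.77 ± 0.32 in Tlx3 tumours (n = 3). Lama2 averaged 6.42 ± 0.44 in hGFAP, 5.27 ± 0.96 in Olig2, 4.93 ± 0.61 in Math1 and 4.60 ± 0.18 in Tlx3 tumours. Every hGFAP tumour had a higher Lama2 signal than every Math1 and Tlx3 tumour and a higher Col1a2 signal than every Tlx3 tumour, while Olig2 tumours overlapped hGFAP tumours in both genes.

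Col6a1 had log2 signals of 6.53 to 7.94 (median 7.04) in hGFAP tumours, 5.96 to 7.56 (median 7.28) in Olig2 tumours, 6.87 and 7.50 in Ptc1+/- tumours, 6.14, 6.65 and 5.97 in Math1 tumours, 5.89, 5.52 and 5.98 in Tlx3 tumours, and 5.92 to 6.81 (median 6.27) in tissue without tumour. Its partner Col6a2 had log2 signals of 7.29 to 8.12 (median 7.37) in hGFAP tumours, 6.77 to 7.53 (median 7.13) in Olig2 tumours, 7.18 and 7.58 in Ptc1+/- tumours, 7.19, 7.17 and 6.81 in Math1 tumours, 6.60, 6.38 and 6.77 in Tlx3 tumours, and 7.18 to 7.93 (median 7.42) in tissue without tumour. In both chains every Tlx3 tumour lay below every hGFAP tumour. With hGFAP and Olig2 tumours together against Math1 and Tlx3 tumours, Col6a1 was the 1 member called, higher by 1.09 (SE 0.22, adjusted p = 0.0465), where 0.259% of all genes were called, 0.118% higher. Without 19 of the 27 arrays, each left out in turn, that call was lost (adjusted p up to 0.158), with values of 1.01 to 1.18. It held in 4 of 17 other alternatives, and the difference was 0.29 (adjusted p = 0.327) without rescaling and 0.76 (adjusted p = 0.231) without the dim arrays. Of the 7 dim arrays 5 were Olig2 tumours and 1 an hGFAP tumour, and 2 Olig2 and 2 hGFAP tumours had a high 3′ to 5′ ratio of control probe sets, while no Math1 or Tlx3 tumour was in either set. The endothelial marker Tek (1.14) and the astrocyte marker Slc1a3 (0.67) were also called higher in this contrast. Each was the only called marker of 7 tested for its cell type. The part of these cells in the result was not tested. The closest behind it were Col27a1 (1.19, adjusted p = 0.0888), Col3a1 (1.23), Lamb1 (0.88) and Lama2 (1.08), each with an adjusted p of 0.0929.

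In hGFAP tumours against Olig2 tumours, 2 members were called, both higher, where 2.99% of all genes were called, 1.91% higher. Col1a2 was higher by 0.92 (SE 0.24, adjusted p = 0.0345) and Col9a1 by 1.29 (adjusted p = 0.0378), while Lama2 differed by 1.15 (adjusted p = 0.0501). Leaving out single arrays ended the Col1a2 call for 7 of 27 arrays (adjusted p up to 0.0975, without Olig2 replicate 5) and the Col9a1 call for 8 (up to 0.108). Each call held in 8 of 17 other alternatives. Without the dim arrays the differences were 0.81 for Col1a2 (adjusted p = 0.333) and 0.56 for Col9a1 (adjusted p = 0.503). With the mean of the tested probe sets of each gene they were 0.92 for Col1a2 (adjusted p = 0.0614) and 0.65 for Col9a1 (adjusted p = 0.113). The pericyte markers Pdgfrb (1.23, adjusted p = 0.0219) and Notch3 (0.95, adjusted p = 0.0156) were higher in hGFAP than in Olig2 tumours, the 2 called of 7 tested. The summed signals of the 7 pericyte and smooth muscle markers tested were 1308 to 1547 in hGFAP tumours and 707 to 1450 in Olig2 tumours. Markers of other cells were called in the same pair. The astrocyte markers Aqp4 (1.17) and Gjb6 (1.70), the neuronal Neurod2 (a 2.29-fold higher signal) and the microglial Csf1r (1.16) were higher in hGFAP tumours. The precursor marker Ccnd1 had a difference of −1.13. The called markers were 2 of 7 tested for astrocytes and Bergmann glia, 1 of 5 for mature granule neurons and 1 of 5 for precursors. Csf1r was the only 1 of 6 microglia and macrophage markers called, and the median difference of these 6 was −0.29. The part of these cells in the result was not tested. RNA quality also moved with this pair, in that the log2 ratio of 3′ to 5′ control probe sets had a median of 0.89 in hGFAP tumours and 0.13 in Olig2 tumours. With that ratio as a covariate 0 members were called in this pair, with an adjusted p of 0.083 for Col1a2. By array, hGFAP replicates 2, 5 and 6 were among the 4 highest tumour arrays for each of Col1a1, Col1a2, Col3a1 and Col5a2, genes grouped after their values were seen.

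**Figure D4:**
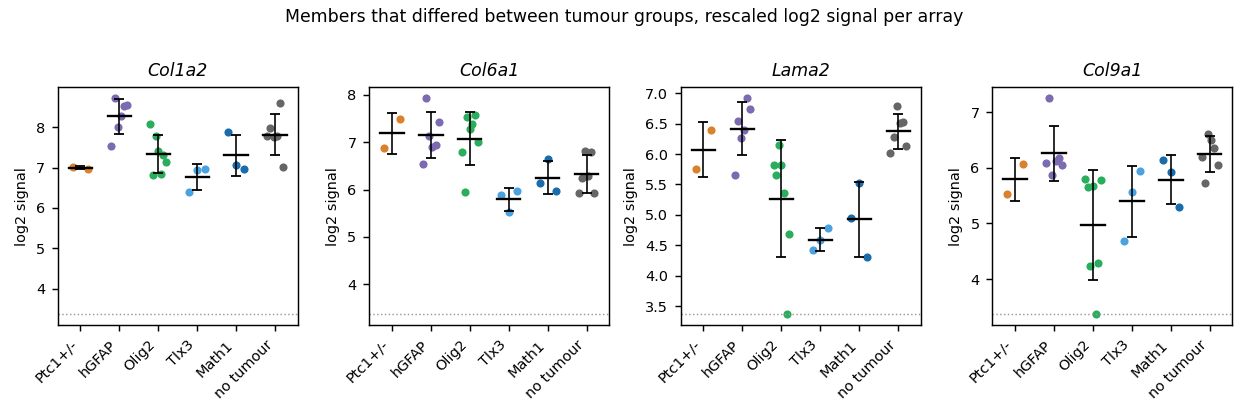
Log2 signal of Col1a2, Col6a1, Lama2 and Col9a1 on every array, from Ptc1+/- tumours through the 4 SmoM2 groups to tissue without tumour. Points are arrays and bars are group means with whiskers of 1 SD. The hGFAP tumours have the highest means of the SmoM2 groups, 8.26 for Col1a2 and 6.42 for Lama2.

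In Ptc1+/- tumours against the 4 SmoM2 groups, limma called 0 members, where 0.547% of all genes were called. The smallest p belonged to Col4a5, with −1.20 (SE 0.42, adjusted p = 0.224), whose 2 Ptc1+/- values of 5.92 and 5.22 are given above. A second probe set of Col4a5 had the opposite sign, with 0.29 (adjusted p = 0.752 in the limma fit of single probe sets). Col7a1, the anchoring-fibril chain, had log2 signals of 6.10 and 6.96 in Ptc1+/- tumours, 5.47, 5.57 and 4.98 in Math1 tumours, 5.40, 4.93 and 5.61 in Tlx3 tumours, 5.42 to 6.23 (median 5.91) in Olig2 tumours and 4.57 to 6.31 (median 5.82) in hGFAP tumours. Its difference was 0.99 (SE 0.35, adjusted p = 0.229). Col23a1, a transmembrane collagen, had log2 signals of 5.91 and 6.68 in Ptc1+/- tumours, 5.74, 5.84 and 5.41 in Math1 tumours, 4.61, 5.18 and 5.34 in Tlx3 tumours, 5.04 to 5.83 (median 5.62) in Olig2 tumours and 4.99 to 6.19 (median 5.78) in hGFAP tumours. Its difference was 0.84 (SE 0.30, adjusted p = 0.249), and in both genes 1 Ptc1+/- array lay within the range of the hGFAP tumours. Tlx3 tumours against Math1 tumours gave 0 calls by limma among the members and among all genes (0%). Of 41 members 9 did not overlap between these groups of 3, all lower in Tlx3 tumours, where 17.6% of all genes did not overlap.

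The markers of the cells that make matrix were read on the same arrays. Of 7 endothelial markers tested 0 were higher and 3 lower in all tumours, and these 7 summed to 407 to 774 in tumours and 544 to 864 in tissue without tumour. Tie1 and Pecam1, endothelial markers under the signal filter, were outside that sum. Tie1 was at the floor on all 6 arrays without tumour and on 18 of the 21 tumour arrays. Pecam1 was at the floor on 0 arrays without tumour and on 11 tumour arrays. Of 7 pericyte and smooth muscle markers tested 0 were higher and 3 lower, with sums of 658 to 1547 in tumours and 973 to 1729 in tissue without tumour. Of 10 meningeal and perivascular fibroblast markers 4 were higher and 3 lower, with a median difference of 0.26. Their sums were 2067 to 4572 in tumours and 623 to 1540 in tissue without tumour. Without Pdgfra, which oligodendrocyte precursors also express, the sums were 706 to 1907 in tumours and 517 to 1464 in tissue without tumour. The part of these cells in the results above was not tested.

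Genes that work with collagens and laminins were read in the same comparison as 4 lists. Of 24 tested genes for collagen folding, crosslinking and trimming, 8 were higher and 7 lower in all tumours, with a median difference of 0.06. The highest were the crosslinking enzyme Loxl1 (3.49), the lysyl hydroxylase Plod2 (2.29) and the prolyl hydroxylase subunit P4hb (1.29), and the lowest the procollagen protease Adamts3 (−2.17), the prolyl hydroxylase subunit P4ha2 (−1.70) and the protease Tll1 (−1.47). Among 17 tested collagen and laminin receptors 9 were higher and 4 lower, with a median of 0.36. The collagen receptors Ddr2 (2.41) and Adgrg1 (1.59) and the integrin beta chain Itgb1 (1.19) were the highest, and the laminin-binding integrin chains Itga3 (−2.48) and Itgb4 (−1.55) and the collagen-binding Itga10 (−0.87) the lowest.

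Of 16 tested matrix metalloproteinases and their inhibitors 7 were higher and 5 lower, with a median of −0.11. The inhibitors Timp1 (2.00) and Timp2 (1.88) and the membrane-bound protease Mmp14 (1.90) were the highest, and Mmp17 (−2.19), Timp4 (−2.02) and Mmp23 (−1.75) the lowest. Of 13 tested basement membrane partners 2 were higher, Fbln2 (1.42) and the laminin-collagen IV linker Nid1 (1.06), and 2 lower, Sparcl1 (−1.38) and the collagen-binding Sparc (−0.90), with a median of 0.24. All genes named from these lists were called, with adjusted p-values of 0.00325 (Itga10) or less. The F test over the SmoM2 groups called 0 genes of the 4 lists. In hGFAP against Olig2 tumours the crosslinking enzyme Lox (1.37, adjusted p = 0.0215) and the procollagen protease enhancer Pcolce (0.97, adjusted p = 0.0449) were higher, and in Ptc1+/- against SmoM2 tumours the sarcoglycan Sgce (1.00, adjusted p = 0.0273), all named after their values were seen.

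**Figure D5:**
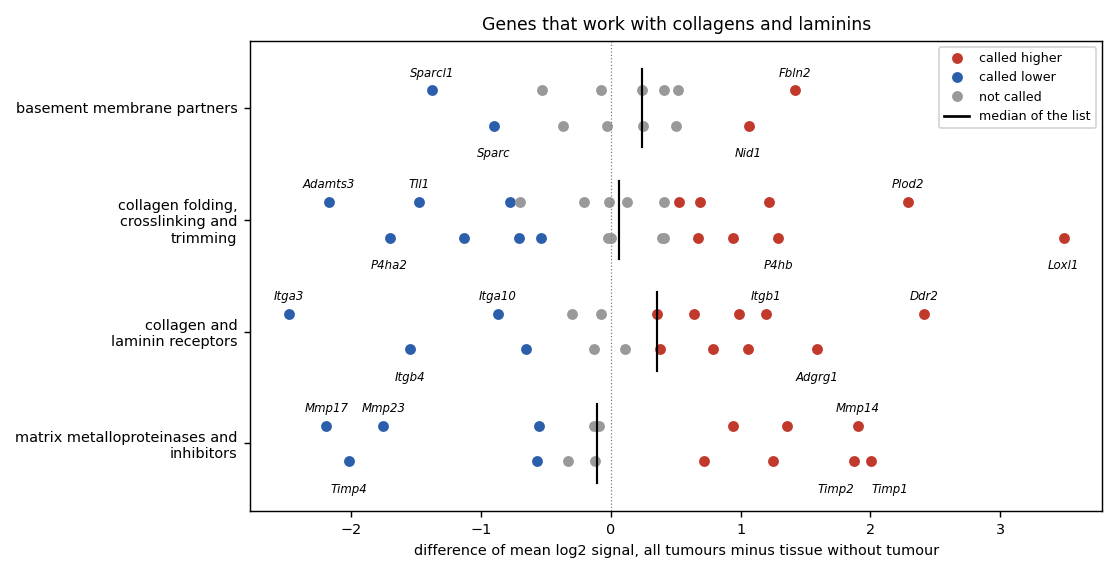
Log2 difference of all tumours minus tissue without tumour (horizontal axis) for each tested gene of 4 lists (rows) of matrix partners. Points are genes, coloured as higher, lower or not called, and the black line is the median, which runs from −0.11 for proteases and inhibitors to 0.36 for receptors.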

How the data were processed

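The authors deposited linear signal intensities of 45101 probe sets on 27 arrays. The submitters' processing notes name MAS5 as the tool, whose version and target level are not given in the sources used here. Trizol and RNeasy were used for RNA extraction and 5 ug was labelled as biotinylated cRNA, per the labels' protocols. No detection calls were used, so low values can be background, and the number of arrays limits the precision.

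Each array was rescaled to a common 2% trimmed mean (123.61, deposited range 42.58 to 205.96), raised to the 20th percentile of the table (10.3) and put on the log2 scale. Probe sets with 1 annotated gene (34958; 932 had several and 9211 were not listed) were kept when above the table median (45.6) on at least 3 arrays, and the probe set with the highest mean stood for a gene. Limma 3.58.1 in R 4.3.3 fitted 6 group means (21 residual degrees of freedom) with trend and robust moderation. Tests were two-sided except the F test and adjusted by the Benjamini-Hochberg method over 13527 genes. Tumour groups had equal weight in a contrast. The fit was tested on simulated data.

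Per-array values are given for the main collagen IV, collagen I, collagen III and laminin chains, the members with the largest called differences, and those with the smallest adjusted p between tumours, and from the lists of partner genes the 3 highest and 3 lowest called. The members and lists were chosen with earlier results of these data known. Alternatives changed the scaling, floor, filter, probe set choice, model, arrays and covariates. The covariate of choroid plexus markers was added after seeing the data. Promoter windows came from RefSeq, on build GRCm38.p6.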

Additional observations from a re-analysis of the deposited data

Results flagged for a closer look

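In 123 group and member combinations of 4 to 10 arrays, 9 had 1 array far from the rest of its group, and chance alone gives about 1 in 20. Of these 6 were arrays without tumour. On replicate 5 of that group, the array with choroid plexus markers, Col1a1 was 7.34 (the other 5 arrays 4.87 to 5.44) and Col8a2 was 6.49 (others 4.58 to 5.22). Replicate 6, from a Ptc1+/- mouse, had 4.68 for Col3a1 (others 6.23 to 7.11) and 7.96 for Col18a1 (others 8.69 to 9.13). Replicate 1 had 5.88 for Col5a1 (others 6.50 to 6.79), and replicate 3 had 6.00 for Lamc1 (others 6.77 to 7.13). Among tumours, Col9a1 was 7.26 on hGFAP replicate 2 (others 5.87 to 6.17), Col9a3 was 5.65 on hGFAP replicate 4 (others 7.31 to 7.94) and Col19a1 was at the floor of 3.37 on Olig2 replicate 4 (others 4.61 to 5.47).

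The other results to look at again are differences between tumour groups. They are the hGFAP minus Olig2 differences of Col1a2 (0.92) and Col9a1 (1.29), and the difference of 1.09 for Col6a1 in hGFAP and Olig2 against Math1 and Tlx3 tumours. The F test among SmoM2 groups gave adjusted p-values of 0.0307 for Col1a2 and 0.0441 for both Col6a1 and Lama2. The Col9a1 difference was 1.02 at its lowest when single arrays were left out and 0.56 without the dim arrays. With the mean of its 2 tested probe sets it was 0.65. The Col6a1 difference was 0.29 without rescaling.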

How the results depend on the processing

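Over 17 alternatives the count of members called in all tumours ran from 15 to 22, and from 15 to 19 with single arrays left out. Without rescaling, the median of all genes shifted to −0.34, and 6 members were higher and 11 lower. Lamc1 lost its call in 8 alternatives (adjusted p up to 0.757, without rescaling), Col5a2 in 2, and Col3a1, Col4a4 and Col15a1 without rescaling. Signs turned for Col1a2 with the probe set of largest variance (0.18), Col7a1 with a replicate block (0.015) and without Ptc1+/- replicate 1 (0.03) or tissue without tumour replicate 6 (0.050; range with single arrays left out −0.14 to 0.050), and Col1a1 without tissue without tumour replicate 5 (0.092; range −0.40 to 0.092), none of them called.

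In Tlx3 tumours 8 members were called without rescaling. In Ptc1+/- tumours (7) the count was 12 without rescaling, 13 on the compared arrays alone, 3 with array weights, 4 without dim arrays, and 4 to 9 with single arrays left out. For hGFAP with Olig2 tumours against Math1 with Tlx3 tumours (1) it was 4 without rescaling, 2 with the mean of probe sets, 8 with array weights, 0 in 11 other alternatives, and 0 to 2 with single arrays left out. For Ptc1+/- against SmoM2 (0) it was 3 without rescaling. For hGFAP against Olig2 (2) it was 0 in 5 alternatives, 1 in 5, 5 without arrays of high 3′ to 5′ ratio, and 0 to 4 with single arrays left out. The F test (3) gave 0 in 5 alternatives, 1 in 4, 10 with array weights, and 0 to 4 with single arrays left out. So between-tumour calls depend on the settings, and the cause was not tested. Calls over all genes under these alternatives are not given here, so no count of members in this section is read as particular to them.

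Replicate numbers were not used to pair the samples. The 49 pairs of arrays with the same number had a median correlation of deviations of 0.03 (−0.34 to 0.28). Pairs of unlike number were not compared, so pairing was not tested. With the replicate block 18 members were called in all tumours. Col6a1 was then not called in hGFAP and Olig2 against Math1 and Tlx3 tumours (adjusted p = 0.221). With choroid plexus markers as a covariate, added after seeing the data, 18 were called, 10 higher and 8 lower, Col1a2 and Col6a2 among them. Values at the floor, present in 17 tested members, limit Lama1 and Col4a4 the most among the members called. The 11 members not tested had low signals and were left out by the signal filter.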
